A study of Mus musculus with 39 samples.

Results

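Chemokines are small secreted proteins that guide leukocytes, and some stem and stromal cells, along gradients by binding G protein-coupled receptors on the moving cell. The inflammatory ligands are induced in damaged or infected tissue, whereas the homeostatic ligands are made constantly and place lymphocytes, dendritic cells and progenitors. In the testis CXCL12 and its receptor CXCR4 are known for the homing of germ cells, and the CC ligands that recruit monocytes are known from testicular inflammation. The genes described here are the 52 chemokines and chemokine receptors of the mouse whose symbols start with Ccl, Ccr, Cxcl or Cxcr followed by a number in the first of 2 deposited count tables. They were joined to the second table by Ensembl identifier, and they stand among 21561 genes that both tables list. There were 23 CC ligands, 13 CXC ligands, 10 CC receptors and 6 CXC receptors.

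RNA was sequenced from gubernaculum, the ligament that draws the testis towards the scrotum, and from testis of male mice on a C57BL/6J background. INSL3-KI mice were homozygous for an allele in which the coding sequence of mouse Insl3, the Leydig cell hormone that drives the gubernaculum through its receptor RXFP2, was exchanged for minke whale INSL3 at the native locus under the mouse regulatory elements. The allele was made by homologous recombination in ES cells, and the neo cassette was later removed with Cre. WT mice carried the mouse gene, and INSL3-KO mice were knockouts whose allele is not described in the sources used here. The gubernaculum groups were all 3 genotypes at postnatal day 8 (P8) and, without the knockout, P23. The testis groups were all 3 genotypes at P8 and at P23 and, again without the knockout, P40. Each of the 13 groups held 3 libraries, 39 in all. The first table holds 27 libraries, and the second holds the other 12, which are every INSL3-KO library plus the WT testes of P23. Of the 11 genotype comparisons, 6 set libraries of one table against libraries of the other, and in these table and genotype cannot be told apart.

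Library totals ranged from 29861447 to 45260372 counts, and the chemokine genes together took between 95.1 and 804 CPM before scaling. Levels are given as CPM, the count of a gene relative to the library total and scaled by TMM over all libraries of a tissue, in the order of the replicate numbers. Differences are log2 fold changes with their standard error (SE) from edgeR's quasi-likelihood test with p-values adjusted by Benjamini and Hochberg across every gene of the fit. Called higher or lower are genes that passed 0.01 after adjustment and changed at least 2-fold. Insl3 transcripts of the mouse gene lay between 63.4 and 79.5 CPM in WT testis at P8 and between 0.379 and 0.725 CPM in INSL3-KI. The P8 testis libraries labelled INSL3-KO kept 13.4 to 17.8 CPM of Insl3, so the label is only partly borne out there, while INSL3-KO testis at P23 held at most 0.115 CPM. Rxfp2, the marker of INSL3-responsive cells, lay between 39.2 and 49.4 CPM in WT gubernaculum at P8 and at most 1.77 CPM in WT testis at P8. In the mutant ligaments at P8 it lay between 1.49 and 1.95 CPM in INSL3-KI (log2 fold change against WT -4.70, SE 0.17, adjusted p = 5.7e-07) and between 9.68 and 31.7 CPM in INSL3-KO (-1.35, SE 0.44, adjusted p = 0.029, not called). The biological coefficient of variation was 0.496 in INSL3-KI gubernaculum at P23 and between 0.326 and 0.374 in the INSL3-KI testis groups, against 0.0789 to 0.286 in the other groups. In bulk tissue a change in the number of cells of a type and a change in RNA per cell cannot be told apart.

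Of the 52 genes, 12 had over 3 counts in all 39 libraries, and Cxcl15 had over 3 counts in none. Per transcript length, the highest mean over the 6 WT gubernaculum libraries was that of Cxcl12 at 43.9 FPKM ± 17.1 (SD), followed by Ccl11, the eosinophil attractant eotaxin, at 14.9 ± 7.57 FPKM. The monocyte attractant Ccl6 followed at 13.1 ± 6.50 FPKM, then the skin T cell attractant Ccl27a at 9.34 ± 2.02 FPKM and the epithelial ligand Cxcl14 at 7.80 ± 8.19 FPKM. The ranges of the last 4 over all 6 libraries, which pool P8 and P23, overlap pairwise, so their order over both ages is not settled. Cxcl14 lay between 0.342 and 0.602 FPKM at P8, below every P8 library of the other genes just named, and between 12.7 and 17.2 FPKM at P23. Over the 9 WT testis libraries the highest mean FPKM was that of Ccl27a (50.3), followed by Cxcl12 (32.9), Ccl21a (7.74), Ccl27b (7.71) and Ccl25 (3.99). Of these libraries the 3 of P23 lie in the second table, where the implied length was 1.10 times that of the first for Ccl27a, 0.948 times for Cxcl12 and 0.91 times for Ccl25, so this order is a description only. The first-table values of P8 and P40 gave different orders. At P8 Cxcl12 lay between 69.5 and 109 FPKM and Ccl27a between 4.76 and 5.93 FPKM, and at P40 Cxcl12 lay between 3.41 and 5.03 FPKM and Ccl27a between 57.6 and 70.3 FPKM. Cxcl12 made up 49.2% of all chemokine gene counts in WT gubernaculum at P8 and 78.7% in WT testis at P8. Ccl27a led in WT testis at P40 with 37.2%, where Cxcl12 held 13.6%.

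Many of the ligand genes lie in clusters. Ccl2, Ccl7, Ccl11, Ccl12, Ccl8 and Ccl1 share chr11:82035571-82305690, and Ccl5, Ccl9, Ccl6, Ccl3 and Ccl4 share chr11:83525778-83664683. Cxcl9, Cxcl10 and Cxcl11 lie together at chr5:92321347-92365485. Ccl27a, Ccl27b, Ccl19, Ccl21a and Ccl21b lie at chr4:41769467-42773993 (all GRCm38, GENCODE annotation). Ccl21a and Ccl21b, and likewise Ccl27a and Ccl27b, are nearly identical copies, so how reads were split between the copies is uncertain.

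RefSeq promoters, here 250 bases before the start, were at hand for 37 of the genes (44 promoters, build GRCm38.p6). The kappa B site of NF-kappa B (GGGNNTTTCC) and the interferon response element (GAAANNGAAA) are shown because the inflammatory ligands are textbook targets of these factors. The cAMP response element (TGACGTCA) was searched because RXFP2 signals through cAMP, all on both strands. The kappa B letters stood in 6 of the 44 promoters (13.6%, against 1.41% of all 32851 promoters), those of Ccl20, Ccl9, Ccr3, Cxcl1, Cxcl2 and Cxcl3. The interferon letters stood in 3 (6.82%, against 2.98%), those of Ccl19, Cxcl10 and Cxcl14, and the cAMP letters in 0 (against 1.55%). A match is a match of letters only. The windows below run 5′ to 3′ on the gene's strand, with each match to either of the first 2 motifs, in either direction, in capitals. They are chr5:90891131-90891190 (plus strand) for Cxcl1, chr11:83578637-83578696 (minus strand) for Ccl9, chr5:92349068-92349127 (minus strand) for Cxcl10 and chr13:56296689-56296748 (minus strand) for Cxcl14.
Cxcl1: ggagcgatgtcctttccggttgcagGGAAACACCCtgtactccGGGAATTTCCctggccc
Ccl9: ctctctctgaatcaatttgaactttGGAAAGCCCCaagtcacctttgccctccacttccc
Cxcl10: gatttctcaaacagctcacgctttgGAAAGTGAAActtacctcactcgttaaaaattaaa
Cxcl14: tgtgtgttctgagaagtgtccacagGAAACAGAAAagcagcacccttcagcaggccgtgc

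In the gubernaculum at P8, where the ligament of INSL3-KI mice was compared with that of WT mice, homeostatic ligands were higher and several inflammatory ligands were lower. Of 29 genes tested, 8 were called higher and 4 lower (27.6% and 13.8%), against 14.4% of all genes called higher and 9.7% called lower. The median log2 fold change of the 29 was 0.03, and that of all genes was 0.02. Of the 10 homeostatic ligands tested 6 were higher and 0 lower (median log2 fold change 2.34), and of the 6 monocyte attractants tested 1 was higher and 2 were lower (median -1.40). The comparison lies within the first table.

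Cxcl14 (ENSMUSG00000021508, chr13:56288643-56296551), a ligand made by epithelia and adipose tissue, had the largest change with a fitted fold. It stood at 1.23, 0.721 and 0.854 CPM in WT, at 107, 90.5 and 86.6 CPM in INSL3-KI and at 17.4, 17.6 and 16.7 CPM in INSL3-KO. The 3 genotypes did not overlap, with INSL3-KI highest. The log2 fold change was 6.70 (SE 0.20, adjusted p = 2.4e-07) for INSL3-KI against WT, 4.20 (SE 0.22, adjusted p = 5.6e-06) for INSL3-KO against WT and 2.47 (SE 0.10, adjusted p = 4.8e-06) for INSL3-KI against INSL3-KO.

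Ccl21a (ENSMUSG00000094686, chr4:42772860-42773993) is a ligand of CCR7 that lymphatic vessels and lymph node stroma make. It was at 0.158, 0.721 and 0.949 CPM in WT, at 59.6, 40.3 and 47.4 CPM in INSL3-KI and at 26.6, 29.0 and 33.1 CPM in INSL3-KO. Both mutants were above WT without overlap, with log2 fold changes of 6.36 (SE 0.42, adjusted p = 9.4e-06) in INSL3-KI and 5.59 (SE 0.46, adjusted p = 4.3e-05) in INSL3-KO. Its copy Ccl21b had at most 3 counts in each WT library and was at least 14.6-fold higher in INSL3-KI and at least 7.96-fold higher in INSL3-KO. Its receptor Ccr7 was too low to be tested against WT, between 0 and 0.594 CPM over the 9 libraries. The summed level of 6 lymphatic endothelium markers, of which none was undetected, was 142 to 207 CPM in WT, 108 to 153 CPM in INSL3-KI and 129 to 138 CPM in INSL3-KO.

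Cxcl12 (ENSMUSG00000061353, chr6:117168535-117181367), the stromal ligand that retains and guides progenitors, gave the largest absolute gain. WT libraries held 145, 142 and 122 CPM, INSL3-KI libraries 420.4, 381 and 349.9 CPM and INSL3-KO libraries 323, 318 and 329.7 CPM. Neither mutant overlapped WT, and the log2 fold changes were 1.54 (SE 0.12, adjusted p = 2e-05) and 1.25 (SE 0.08, adjusted p = 1.8e-05). Its receptor Cxcr4 was at 10.1, 8.98 and 7.5 CPM in WT and at 8.28, 6.00 and 7.64 CPM in INSL3-KI, which overlap (log2 fold change -0.24, adjusted p = 0.33). In INSL3-KO Cxcr4 was at 16.6, 13.4 and 12.7 CPM, above WT with adjusted p = 0.0086 but a log2 fold change of 0.68, short of the called size.

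Cxcl16, a membrane-bound ligand of macrophages and stroma that binds CXCR6, was at 10.1, 12.2 and 8.89 CPM in WT, at 31.1, 25.3 and 21.1 CPM in INSL3-KI and at 21.6, 21.7 and 21.5 CPM in INSL3-KO. Both mutants were above WT without overlap (log2 fold change 1.35, SE 0.19, adjusted p = 0.00052, and 1.05, SE 0.14, adjusted p = 0.0004). The gene overlaps exons of Zmynd15. Its receptor Cxcr6 was at 0.126, 0.691 and 0.728 CPM in WT and at 1.54, 2.06 and 0.875 CPM in INSL3-KI, which was not called (log2 fold change 1.57, adjusted p = 0.073).

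Cxcl13, the ligand that draws B cells into follicles, stood at 0.221, 0.12 and 0 CPM in WT, at 2.23, 1.10 and 1.28 CPM in INSL3-KI and at 3.47, 2.52 and 3.20 CPM in INSL3-KO. Its log2 fold change was 3.75 (SE 0.82, adjusted p = 0.0053) in INSL3-KI and 4.71 (SE 0.72, adjusted p = 0.00093) in INSL3-KO, with no overlap between WT and either mutant. The T cell and monocyte attractant Ccl5 had 0 counts in the 3 WT libraries, 0.253, 0.422 and 0.437 CPM in INSL3-KI and 0.756, 0.357 and 0.662 CPM in INSL3-KO. Against the floor of 3 counts it was at least 3.98-fold higher in INSL3-KI (adjusted p = 0.0051) and at least 6.35-fold higher in INSL3-KO (adjusted p = 0.0025).

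Ccr2, the receptor that brings monocytes into tissue, was at 0.537, 0.871 and 1.96 CPM in WT, at 3.57, 4.37 and 4.32 CPM in INSL3-KI and at 10.2, 8.83 and 7.17 CPM in INSL3-KO. The groups followed each other without overlap. The log2 fold change was 1.90 (SE 0.47, adjusted p = 0.0091) for INSL3-KI and 2.96 (SE 0.46, adjusted p = 0.001) for INSL3-KO. Its ligand Ccl2, the main monocyte attractant, moved the other way in INSL3-KI. Ccl2 was at 5.62, 3.03 and 3.38 CPM in WT, at 0.836, 0.507 and 0.758 CPM in INSL3-KI and at 4.75, 5.26 and 4.82 CPM in INSL3-KO. The INSL3-KI libraries lay below all others (log2 fold change against WT -2.47, SE 0.38, adjusted p = 0.00092), whereas INSL3-KO overlapped WT (0.30, adjusted p = 0.34).

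Cxcl9, Ccl11 and Ccl9 were lower in INSL3-KI as well. Cxcl9 (chr5:92321347-92328079), an interferon-induced ligand of CXCR3, was at 23, 28.4 and 23.5 CPM in WT, at 1.09, 2.48 and 1.31 CPM in INSL3-KI and at 13.3, 10.5 and 14.8 CPM in INSL3-KO. It was lowest in INSL3-KI without overlap (log2 fold change -3.90, SE 0.31, adjusted p = 2.5e-05), and in INSL3-KO it was below WT by less than the called size (-0.96, adjusted p = 0.0012). Its neighbour Cxcl10, also interferon-induced, was at 5.59, 4.77 and 3.38 CPM in WT and at 2.03, 6.42 and 1.69 CPM in INSL3-KI and overlapped (-0.39, adjusted p = 0.54). Their receptor Cxcr3, of effector T cells, was at 0.505, 0.300 and 0.854 CPM in WT and at 0.912, 0.676 and 1.11 CPM in INSL3-KI, overlapping as well (0.74, adjusted p = 0.26). Ccl11 was at 36.3, 22.1 and 15.8 CPM in WT, at 4.33, 2.73 and 4.02 CPM in INSL3-KI and at 19.4, 19.0 and 18.6 CPM in INSL3-KO. The INSL3-KI libraries stood apart below the rest (log2 fold change -2.70, SE 0.33, adjusted p = 0.00024). Ccl9, a CCR1 ligand of myeloid cells, was at 11, 10.1 and 19.0 CPM in WT, at 4.66, 5.77 and 5.69 CPM in INSL3-KI and at 22.4, 17.1 and 15.9 CPM in INSL3-KO (log2 fold change of INSL3-KI -1.27, SE 0.27, adjusted p = 0.0042). Of their receptors, Ccr1 was below WT by less than the called size (-0.89, adjusted p = 0.0068), and Ccr3 was at or below 0.470 CPM in all P8 libraries.

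**Figure D1:**
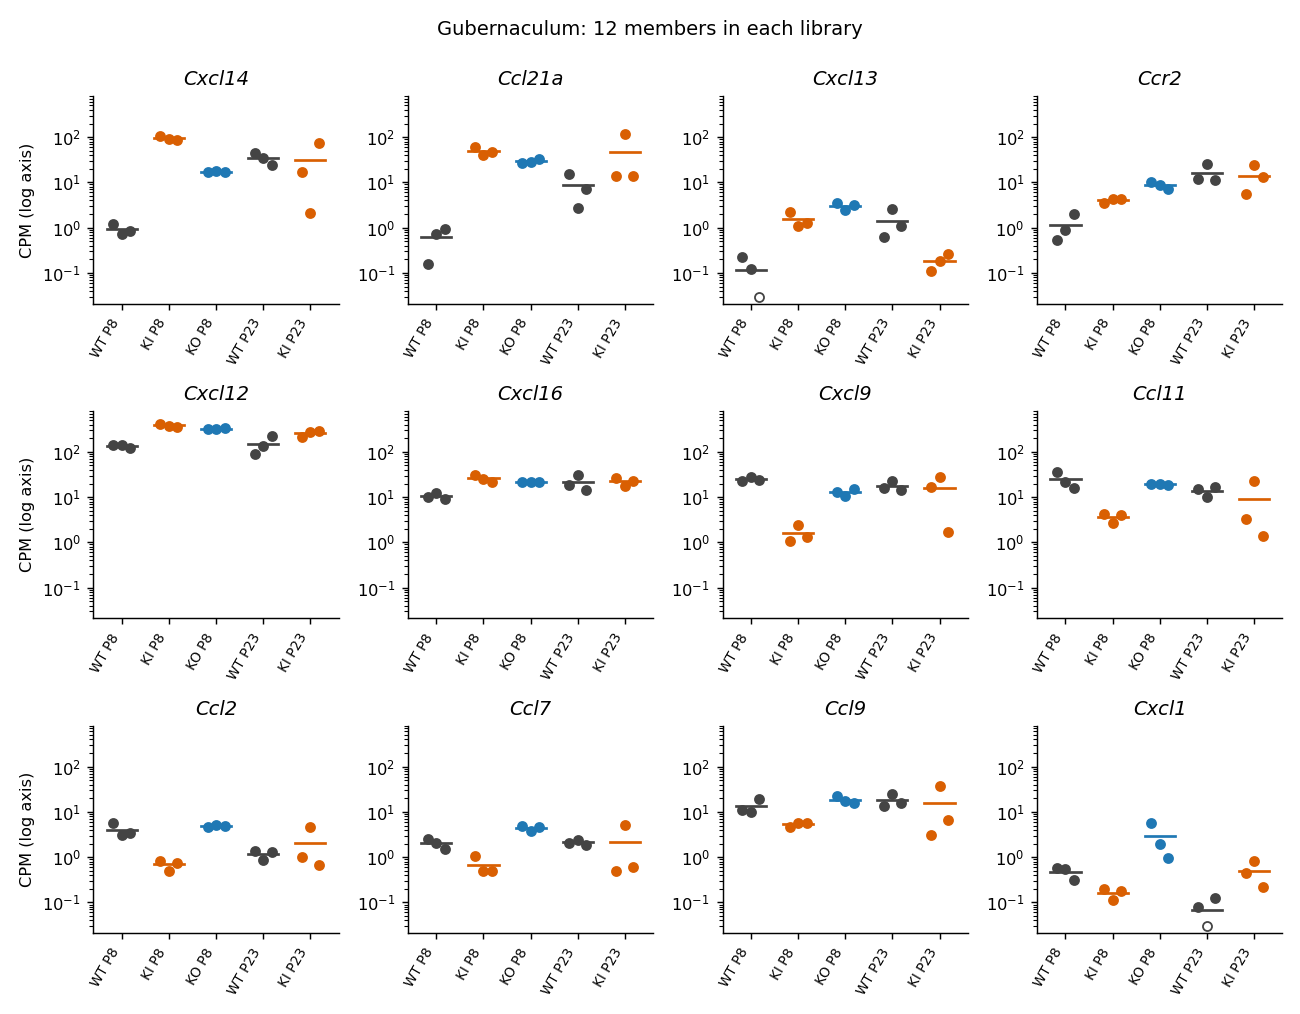
CPM (log axis) of 12 genes in each gubernaculum library, with WT in grey, INSL3-KI in orange and INSL3-KO in blue; a line marks the mean of 3 libraries, and open circles are libraries under 0.03 CPM. At P8 Cxcl14, Ccl21a and Cxcl12 are higher in both mutants, Cxcl9, Ccl11 and Ccl2 are low in INSL3-KI, and at P23 the INSL3-KI libraries spread widely.

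The INSL3-KI and INSL3-KO comparisons share the same 3 WT libraries. Of 30 genes tested in INSL3-KO, 10 were called higher and 0 lower, against 15.5% and 15.2% of all genes. Among the genes tested the median log2 fold change was 0.77 beside 0.03 for all genes, 15 had an unadjusted p under 0.05, and DESeq2 also called 0 lower. Beyond the genes above, the calls were Ccl7, a monocyte attractant, and Cxcr5, the receptor of CXCL13 on B cells. Ccl7 was at 2.53, 2.07 and 1.49 CPM in WT and at 4.80, 3.83 and 4.70 CPM in INSL3-KO (log2 fold change 1.13, SE 0.26, adjusted p = 0.0065). Cxcr5 was at 0, 0.18 and 0 CPM in WT and at 1.80, 1.67 and 1.78 CPM in INSL3-KO (4.75, SE 0.93, adjusted p = 0.0031). Cxcr5 shares exon positions with Bcl9l, whose log2 fold change in the same comparison was -4.60 (adjusted p = 3.7e-06), and the part of the different tables in these values was not tested. Ccl25 likewise overlaps Elavl1, which was higher in INSL3-KO by 1.07 on the log2 scale.

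Counts of calls depended on single libraries. In INSL3-KI the 8 higher calls became 5 without WT replicate 2, INSL3-KI replicate 1 or INSL3-KI replicate 3, and 4 without INSL3-KI replicate 2. Cxcl14, Ccl21a, Cxcl12, Cxcl16, Cxcl9, Ccl11 and Ccl2 kept their call without any single library, while Cxcl13, Ccl5, Ccr2, Ccl21b and Ccl9 lost theirs at least once. In INSL3-KO the 10 higher calls became 6 without INSL3-KO replicate 1, and 1 gene was called lower without WT replicate 1 or without INSL3-KO replicate 3.

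The mutant ligaments were also compared directly. The INSL3-KI libraries lie in the first table and the INSL3-KO libraries in the second, so genotype and table cannot be told apart here. Of 31 genes tested, 1 was higher in INSL3-KI and 12 were lower, against 11.9% and 10.5% of all genes, with a median log2 fold change of -0.94 beside -0.01 for all genes. Of the 6 monocyte attractants tested 5 were lower in INSL3-KI and 0 higher (median -1.71). The largest difference was in the neutrophil attractant Cxcl1, at 0.203, 0.113 and 0.175 CPM in INSL3-KI and at 5.82, 1.94 and 0.959 CPM in INSL3-KO. It was lower in INSL3-KI without overlap (log2 fold change -4.11, SE 0.77, adjusted p = 0.003), and WT lay between at 0.569, 0.54 and 0.316 CPM. INSL3-KO replicate 1 was the highest library, and the call was lost without INSL3-KI replicate 1, 2 or 3 and with limma on log2(FPKM + 1). Cxcl2, another neutrophil attractant, was too low to test, with 0.339, 0.245 and 0.114 CPM in INSL3-KO and 0 in the other P8 libraries.

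The other calls in this comparison included Ccl7 (log2 fold change -2.69, SE 0.35, adjusted p = 0.00049), which was at 1.04, 0.507 and 0.496 CPM in INSL3-KI. Ccl2 (-2.81), Cxcl9 (-2.98), Ccl11 (-2.36) and Ccl9 (-1.78) differed in the same direction, with adjusted p of at most 0.00025. Ccl6 was at 4.64, 6.48 and 6.91 CPM in INSL3-KI and at 19.2, 18.1 and 19.5 CPM in INSL3-KO (-1.65, SE 0.17, adjusted p = 0.00016). The eosinophil attractant Ccl24 (-1.60, adjusted p = 0.0059), the monocyte attractant Ccl12 (-1.31, adjusted p = 0.0042) and Cxcr5 (-3.28, adjusted p = 0.00071, with Bcl9l at 4.50) were lower too. The receptors Ccr1 (-1.21, adjusted p = 0.0006) and Ccr2 (-1.09, adjusted p = 0.0019), both of monocytes and macrophages, followed the ligands. A single fit over all gubernaculum groups called 3 genes lower and 0 higher. Without INSL3-KI replicate 1, 2 genes were called higher in place of 1.

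Marker genes of other tissues differed between the same P8 groups. Epididymal epithelium markers (8) summed to 0.538 to 0.758 CPM in WT, where 7 of the 8 were undetected, to 1483 to 3082 CPM in INSL3-KI and to 1633 to 1744 CPM in INSL3-KO, with Defb20 and Lcn9 undetected in INSL3-KI and Lcn9 in INSL3-KO. Adipocyte markers (7) summed to 90.9 to 103 CPM in WT, 778 to 1062 CPM in INSL3-KI and 2071 to 2306 CPM in INSL3-KO, with Lep and Retn undetected in WT. Skeletal muscle markers (10, none undetected) summed to 25150 to 26180 CPM in WT, 725 to 1271 CPM in INSL3-KI and 6461 to 7002 CPM in INSL3-KO. Macrophage markers (12, none undetected) summed to 449 to 868 CPM in WT, 280.4 to 298 CPM in INSL3-KI and 549.7 to 554 CPM in INSL3-KO, with 5 of the 12 called lower in INSL3-KI and 0 of the 12 called in INSL3-KO. The part of these tissues in the chemokine values was not tested.

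At P23 the gubernaculum of INSL3-KI mice showed no chemokine gene past the threshold. Of 29 genes tested, 0 were called higher and 0 lower, against 0.212% and 2.35% of all genes. The median log2 fold change was -0.14 beside 0.11 for all genes, 2 genes had an unadjusted p under 0.05, and DESeq2 called 1 lower and 0 higher. Cxcl14 was at 44.2, 33.9 and 24.6 CPM in WT and at 17.4, 2.16 and 73.1 CPM in INSL3-KI. Ccl21a was at 15.7, 2.74 and 7.34 CPM in WT and at 13.6, 115 and 13.8 CPM in INSL3-KI. Ccl9 was at 13.7, 24.4 and 16.0 CPM in WT and at 3.06, 37.4 and 6.78 CPM in INSL3-KI. INSL3-KI replicate 2 was the lowest library for Cxcl14 and the highest for Ccl21a and Ccl9, and the groups overlapped for all 3 genes. That library held 2.68 CPM of epididymal markers, against 3641 and 9067 CPM in INSL3-KI replicates 1 and 3, and 15360 CPM of adipocyte markers, against 6500 and 509.8 CPM. WT replicate 3 held 1293 CPM of epididymal markers, and the other WT libraries held 0.555 and 0.504 CPM. Skeletal muscle markers summed to 67180 to 122200 CPM in WT and to 20.1 to 937 CPM in INSL3-KI. The part of these tissues in the P23 chemokine values was not tested.

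Cxcl13 came nearest to a call at P23, at 0.634, 2.55 and 1.10 CPM in WT and at 0.11, 0.185 and 0.265 CPM in INSL3-KI (log2 fold change -2.90, SE 0.74, adjusted p = 0.053). This is the direction opposite to P8. The difference between the ages was tested by the interaction of age and genotype, in which 0 of 35 genes were called higher and 0 lower, against 0.0874% and 0.194% of all genes. For Cxcl13 the difference was -6.69 on the log2 scale (SE 1.31, adjusted p = 0.019) and for Cxcl14 -6.87 (SE 1.31, adjusted p = 0.018), 10 genes had an unadjusted p under 0.05, and DESeq2 called 3 higher and 3 lower. Without INSL3-KI replicate 3 at P23 edgeR called 1 higher and 1 lower, and without INSL3-KI replicate 2 it called 2 lower.

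In WT gubernaculum between P8 and P23, 2 of 27 genes tested were called higher and 0 lower, against 6.17% and 4.34% of all genes. Among the genes tested the median log2 fold change was 0.43 beside 0.00 for all genes, 11 genes had an unadjusted p under 0.05, and DESeq2 called 7 higher and 1 lower. Cxcl14 rose by 5.18 on the log2 scale (SE 0.32, adjusted p = 0.00041) and Ccr2 by 3.86 (SE 0.56, adjusted p = 0.0031), the latter from below 2 CPM to 11.9, 25.6 and 11.3 CPM. Both genes thus stood higher in WT at P23 and in the mutants at P8 than in WT at P8. Ccl5 was at 0.396, 2.90 and 0.564 CPM at P23 and was not called (adjusted p = 0.016). Without WT replicate 1 or 2 of P8 the call of Ccr2 was lost, which left 1.

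WT tissues were also compared at P8. Of 24 genes tested, 11 were called higher in gubernaculum than in testis and 3 lower, against 14.1% and 14.3% of all genes, with a median log2 fold change of 1.65 beside 0.00 for all genes. All 5 monocyte attractants tested were higher in gubernaculum (Ccl2 by 3.26, Ccl7 by 3.11, Ccl12 by 2.24, Ccl9 by 3.50 and Ccl6 by 4.71 on the log2 scale). Ccl11 was higher by 5.34 (SE 0.47, adjusted p = 8.5e-05) and Cxcl10 by 3.02 (SE 0.44, adjusted p = 0.00095), and Cxcl9 had 0 counts in the 3 testis libraries. Ccr1, Cxcr4 and Ccl27a were higher as well, by 2.27, 1.19 and 1.15. Cxcl10 overlaps exons of Art3, and Ccl27a overlaps exons of Il11ra1. Art3 and Il11ra1 were themselves called higher in gubernaculum, and their part in the values of Cxcl10 and Ccl27a was not tested. Lower in gubernaculum were Ccl21a (-4.13, SE 0.69, adjusted p = 0.0018), Cxcl14 (-2.92) and Ccl17, a ligand of CCR4 (-4.44). The 11 higher calls fell to 4 without WT gubernaculum replicate 1 or WT testis replicate 2, to 5 without gubernaculum replicate 2 and to 6 without gubernaculum replicate 3. The 3 lower calls fell to 1 without gubernaculum replicate 1 or 3 or testis replicate 2, and Ccl21a, Ccl11, Cxcl9 and Cxcl10 kept their call throughout.

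In WT testis, the receptors Ccr4, Ccr6, Ccr7 and Cxcr5 and the ligands Ccl22, Ccl25, Ccl27a and Ccl28 rose between P8 and P40, the weeks in which the first wave of spermatogenesis reaches spermatids. Of 28 genes tested, 11 were called higher at P40 and 3 lower, against 31.9% and 27.8% of all genes. The median log2 fold change was 0.69 beside -0.03 for all genes. Ccr4 (ENSMUSG00000047898, chr9:114490316-114504916), a receptor of T helper and regulatory T cells, went from 0.15, 0 and 0.0699 CPM to 3.64, 2.37 and 3.02 CPM (log2 fold change 5.27, SE 0.77, adjusted p = 0.00037). Ccr6 (ENSMUSG00000040899, chr17:8236043-8257141), the receptor of CCL20, had 0 counts at P8 and 3.68, 2.57 and 2.75 CPM at P40, at least 42.4-fold higher (adjusted p = 6.4e-05). Ccr7 (ENSMUSG00000037944, chr11:99144196-99155077), the receptor that takes dendritic cells and T cells to lymph nodes, went from at most 0.113 CPM to 3.07, 2.69 and 1.68 CPM (4.73, SE 0.50, adjusted p = 5.4e-05). Cxcr5 went from at most 0.175 CPM to 5.0, 4.23 and 4.03 CPM (5.22, SE 0.74, adjusted p = 0.00032). Each of these receptors was near 0 in all P8 libraries and higher without overlap at P40. Cxcr5 shares exon positions with Bcl9l, which fell by 1.90.

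Ligands that bind these or related receptors were also higher at P40. Ccl22, a ligand of CCR4, went from 0.0998, 0.271 and 0.14 CPM to 3.33, 3.52 and 4.67 CPM (4.41, SE 0.47, adjusted p = 5.6e-05). Ccl27a (ENSMUSG00000073888, chr4:41769467-41774247), a ligand of CCR10 that skin makes, went from 3.04, 3.05 and 3.49 CPM to 55.3, 59.4 and 43.8 CPM (3.99, SE 0.15, adjusted p = 2.1e-07). It overlaps exons of Il11ra1, which fell by 1.67 on the log2 scale in the same comparison, and its copy Ccl27b rose by 5.63 (SE 0.71). Ccl28, a mucosal ligand of CCR10, rose by 2.73 (SE 0.62, adjusted p = 0.004), and Ccl25, the thymic and gut ligand of CCR9, by 1.83 (SE 0.24, adjusted p = 0.00022). Ccl5 and Cxcl9 had 0 counts at P8 and were at least 14.0-fold and at least 8.51-fold higher at P40.

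Cxcl12 went the other way, from 132, 185 and 217 CPM at P8 to 23.8, 17.0 and 17.4 CPM at P40 (-3.25, SE 0.22, adjusted p = 4.7e-06). Ccl11 was undetected at P40 and at least 5.58-fold lower, and Cxcl14 was called lower (-2.15, adjusted p = 0.0099) although its groups overlapped. Without WT replicate 1 of P8, 5 genes were called lower in place of 3. Spermatid markers (8) summed to 2.92 to 3.54 CPM in WT testis at P8 and to 9580 to 12070 CPM at P40, with Acrv1 and Tnp1 undetected at P8. Of the lymphocytes that usually carry these receptors, T cell markers (7, none undetected) summed to 3.88 to 5.03 CPM at P8 and 5.85 to 7.99 CPM at P40. B cell markers (6, none undetected) summed to 0.998 to 1.83 CPM at P8 and 13.4 to 18.6 CPM at P40. Within that list the B cell transcription factor Pax5 went from at most 0.150 CPM to between 12.0 and 16.5 CPM and made up most of the P40 sum. Ms4a1 was at 0.0699 to 0.158 CPM at P8 and 0.219 to 0.791 CPM at P40. The B cell receptor chains Cd79a and Cd79b and the coreceptor Cd22 were at or below 0.168, 0.263 and 0.470 CPM at P40. The part of lymphocytes and spermatids in the receptor values was not tested.

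**Figure D2:**
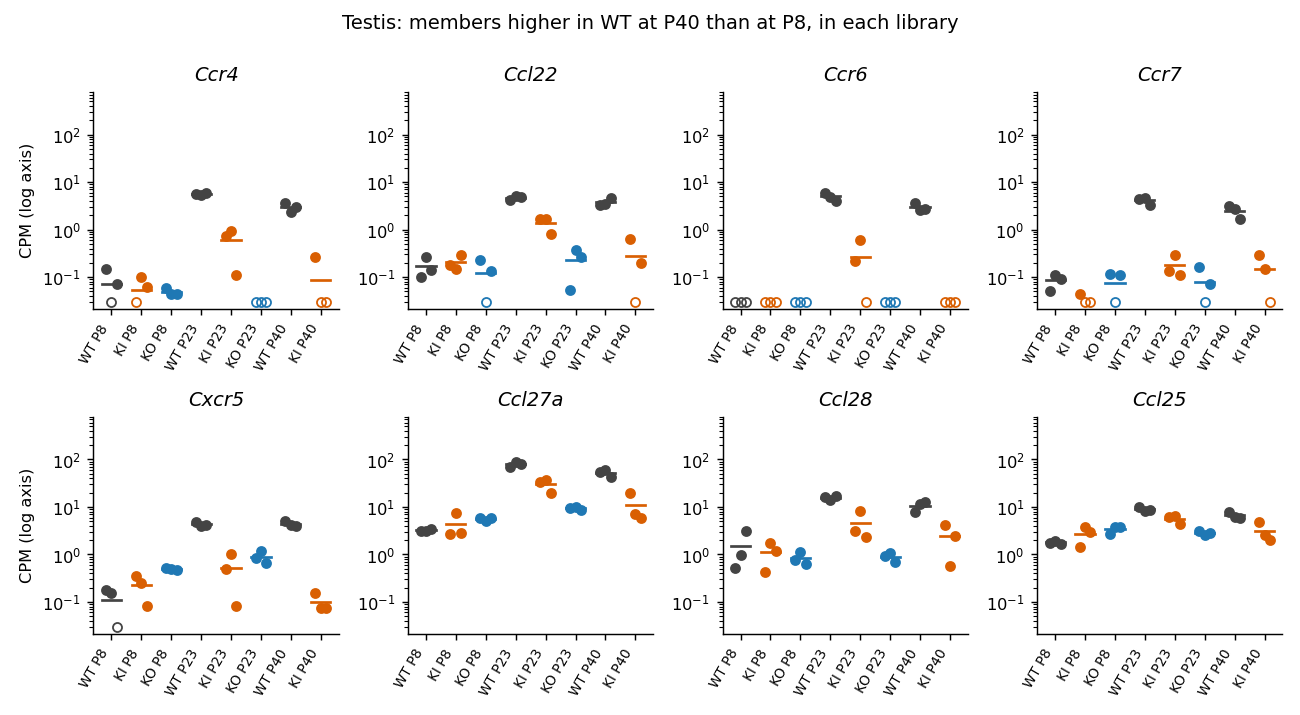
CPM (log axis) of 8 genes in each testis library by genotype and age, with WT in grey, INSL3-KI in orange and INSL3-KO in blue; a line marks the mean of 3 libraries, and open circles are libraries under 0.03 CPM. All 8 are higher in WT at P23 and P40 than at P8, and the INSL3-KO libraries at P23 and the INSL3-KI libraries at P40 lie below WT of the same age.

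At P8 few of these genes were called in testis. In INSL3-KI 0 of 22 genes tested were called higher and 1 lower, against 3.03% and 3.25% of all genes, with a median log2 fold change of -0.42 beside 0.00 for all genes. DESeq2 also called 0 higher, and 5 genes had an unadjusted p under 0.05. The call was Cxcl12, at 132, 185 and 217 CPM in WT and at 63.4, 40.7 and 72.2 CPM in INSL3-KI (-1.53, SE 0.27, adjusted p = 0.0092). It was lost without WT replicate 2 or 3 or INSL3-KI replicate 1 or 3, while 2 genes were called without WT replicate 1. Endothelium markers summed to 218 to 373 CPM in WT and 96.6 to 145 CPM in INSL3-KI. Germ cell markers summed to 446 to 806 CPM in WT and 1114 to 2357 CPM in INSL3-KI. The part of these cell types in the Cxcl12 values was not tested.

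The P8 testis libraries labelled INSL3-KO lie in the other table than WT. Of 27 genes tested in them 2 were called higher and 1 lower, against 5.44% and 8.37% of all genes. The median log2 fold change was 0.34 beside -0.02 for all genes. Ccr2 was at 0.325, 0.497 and 0.466 CPM in WT and at 1.17, 1.62 and 1.40 CPM in these libraries (1.72, SE 0.35, adjusted p = 0.0049). Cxcr4 was at 3.77, 5.35 and 3.38 CPM in WT and at 8.59, 9.68 and 9.96 CPM (1.20, SE 0.20, adjusted p = 0.0022). Ccl17 was at 0.549, 0.406 and 0.699 CPM in WT, had at most 3 counts in each of these libraries and was at least 8.68-fold lower (adjusted p = 0.0032). Cxcl12, at 85.0, 92.4 and 85.7 CPM, lay below every WT library by -1.0 on the log2 scale (SE 0.17, adjusted p = 0.0021), at the edge of the called size. Higher calls numbered 1 without WT replicate 2 or INSL3-KO replicate 1 and 0 without INSL3-KO replicate 2 or 3, and lower calls 3 without WT replicate 1 and 0 without WT replicate 2 or INSL3-KO replicate 1 or 3.

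The testes of the P8 mutants lie in different tables. Between them 0 of 27 genes tested were called higher in INSL3-KI and 0 lower, against 2.76% and 1.16% of all genes. Among the genes tested the median log2 fold change was -0.55 beside 0.00 for all genes, 6 genes had an unadjusted p under 0.05, and DESeq2 called 1 lower and 0 higher. Without INSL3-KI replicate 2, edgeR called 1 lower.

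At P23 the testis of INSL3-KO mice held almost no transcripts of the receptors Ccr4, Ccr6 and Ccr7, which rose with age in WT. Under TMM scaling it held more of several monocyte attractants and of their receptor Ccr2. Of these only Ccl9 stayed called when libraries were scaled on the Sertoli list. This comparison lies within the second table. Of 31 genes tested, 11 were called higher and 10 lower, against 31.1% and 33.4% of all genes, so the shares of 35.5% and 32.3% are near the background. The median log2 fold change was 0.59 beside 0.06 for all genes. Without any single library 9 of the 11 higher and 9 of the 10 lower genes kept their call.

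Ccr4 was at 5.64, 5.26 and 5.82 CPM in WT and had 0 counts in INSL3-KO, at least 75.5-fold lower (adjusted p = 3.9e-07). Ccr6 was at 6.05, 4.97 and 4.07 CPM in WT and had 0 counts in INSL3-KO, at least 68.1-fold lower (adjusted p = 1.1e-06). Ccr7 was at 4.51, 4.69 and 3.24 CPM in WT and at 0.16, 0 and 0.0725 CPM in INSL3-KO (-5.67, SE 0.59, adjusted p = 7.1e-06). No INSL3-KO library held over 0.16 CPM of any of the 3 receptors. Cxcr5 was lower too but stayed detected, at 4.8, 3.91 and 4.24 CPM in WT and at 0.854, 1.20 and 0.653 CPM in INSL3-KO (-2.19, SE 0.29, adjusted p = 4.6e-05). It shares exon positions with Bcl9l, which was called higher here (1.12), and the part of Bcl9l reads in these values was not tested. Ccl22 was at 4.23, 5.14 and 4.82 CPM in WT and at 0.0533, 0.368 and 0.266 CPM in INSL3-KO (-4.25, SE 0.46, adjusted p = 9.2e-06). Ccl28 was at 16.0, 14.0 and 16.6 CPM in WT and at 0.907, 1.06 and 0.701 CPM in INSL3-KO (-4.06, SE 0.19, adjusted p = 1e-08). Ccl27a was at 70.3, 86.5 and 81.3 CPM in WT and at 9.52, 9.87 and 8.51 CPM in INSL3-KO (-3.03, SE 0.10, adjusted p = 7.2e-10). None of these ligands overlapped between the genotypes. Ccl17 was lower as well (-3.70, SE 0.91, adjusted p = 0.0032), and Ccl27b and Ccl25 were also among the 10.

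Among the genes higher in INSL3-KO, Ccl9 had the largest fitted change, from 0.726, 0.53 and 0.831 CPM in WT to 15, 20.2 and 14.1 CPM (4.62, SE 0.23, adjusted p = 2.1e-08). Ccl24 rose from 0.605, 0.326 and 0.166 CPM to 5.82, 6.09 and 6.50 CPM (4.11, SE 0.34, adjusted p = 1.1e-06). Ccl6 rose from 0.726, 0.571 and 1.25 CPM to 5.28, 7.22 and 6.84 CPM (2.99, SE 0.29, adjusted p = 4.1e-06). All 3 are ligands of myeloid cells, and none overlapped between the genotypes. Cxcl14 rose from 0.766, 0.408 and 0.332 CPM to 3.71, 3.52 and 3.51 CPM (2.88, SE 0.33, adjusted p = 1.6e-05). Ccl12 rose from 0, 0.163 and 0.208 CPM to 0.933, 0.851 and 0.798 CPM (2.83, SE 0.67, adjusted p = 0.0026). Ccl2 had at most 3 counts per WT library and was at least 4.0-fold higher in INSL3-KO (adjusted p = 0.0035). Of the 7 monocyte attractants tested 4 were higher and 0 lower, against 31.1% and 33.4% of all genes. The receptor Ccr2 rose from 2.54, 2.04 and 1.08 CPM to 13.0, 12.1 and 10.2 CPM (2.69, SE 0.26, adjusted p = 4e-06), and Cxcl12, Cxcr4 and Cxcl16 were also among the 11.

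Whether these rises stand relative to another reference depended on the scaling. When libraries were scaled on 10 Sertoli cell genes in place of TMM, the all-gene median of this comparison moved to -2.21 (log2), the lower calls became 16 and the higher calls 2. Of all 16732 genes this scaling called 11781 lower and 175 higher. Ccl9 (2.36) and Ccl24 (1.85) stayed called, the other 9 were no longer called, and Cxcl16 turned sign (-0.21). The monocyte attractants Ccl5 and Ccl8 were among the genes newly called lower. The 10 lower genes stayed called, which tests them little where most genes are called lower. The summed Sertoli list was 2365 to 2457 CPM in WT and 10950 to 11210 CPM in INSL3-KO (10 of 10 genes higher), and the macrophage list was 228 to 238 CPM and 1310 to 1354 CPM (12 of 12 higher). Spermatid markers (8) fell from 16300 to 18460 CPM in WT to 14.4 to 16.5 CPM in INSL3-KO. No marker of these 3 lists was undetected in either group, and their part in the chemokine values was not tested beyond the scaling.

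In INSL3-KI testis at P23, set against WT of the other table, 1 of 25 genes tested was called higher and 9 lower, against 8.81% and 11.8% of all genes. Among the genes tested the median log2 fold change was -0.38 beside 0.08 for all genes. Ccr7 was at 0.136, 0.296 and 0.11 CPM (-4.49, SE 0.44, adjusted p = 0.001) and was the one gene called under every omission of a library and under the Sertoli scaling. Ccr6 was at 0.217, 0.593 and 0 CPM (-4.21, adjusted p = 0.0086) and Ccr4 at 0.734, 0.948 and 0.11 CPM (-3.21, adjusted p = 0.0072), with INSL3-KI replicate 3 lowest in both. Ccl22 was at 1.69, 1.66 and 0.826 CPM (-1.75, adjusted p = 0.0069) and Ccl27a at 33.4, 36.4 and 19.7 CPM (-1.40, adjusted p = 0.005). Both ligands lay between the WT and INSL3-KO libraries of the same age. The monocyte ligand Ccl8 (-4.56), Ccl5 (-4.45), Ccl27b (-1.53) and Ccl17 (at least 7.09-fold lower) were lower, with adjusted p of at most 0.009. Ccl9, at 1.77, 2.79 and 2.56 CPM, was higher (1.78, SE 0.34, adjusted p = 0.0071).

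The 9 lower calls became 1 without WT replicate 1, 2 or 3 and 3 without INSL3-KI replicate 1, and the single higher call was lost without any WT replicate or INSL3-KI replicate 1 or 2. With the Sertoli scaling the all-gene median moved to -0.34, 1 gene was called lower and 0 higher, against 151 and 67 of all 16603 genes. Spermatid markers summed to 540.5, 746 and 78.2 CPM in the 3 INSL3-KI libraries and the Sertoli list to 2969, 2269 and 5913 CPM, so replicate 3 stood apart on both.

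INSL3-KI testis at P23 was also set against INSL3-KO, which lies in the other table. Of 30 genes tested 2 were called higher in INSL3-KI and 9 lower, against 25.2% and 13.0% of all genes. The median log2 fold change was -1.40 beside 0.02 for all genes. Ccl27a (1.68, SE 0.26, adjusted p = 0.0017) and Ccl28 (2.36, SE 0.55, adjusted p = 0.0083) were higher. Ccl9 (-2.79, SE 0.27, adjusted p = 0.00033), Ccl24 (-2.81, SE 0.35, adjusted p = 0.0008) and Ccl6 (-2.59, SE 0.45, adjusted p = 0.0027) were lower, as was Ccl8 (-4.36, adjusted p = 0.0082). Cxcr4 (-1.67), Cxcl16 (-1.52), Cxcl12 (-1.51), Cxcl14 (-1.32) and Ccl21a (-1.27) were lower with adjusted p of at most 0.004. With the Sertoli scaling, under which the all-gene median was 1.80, 5 genes were higher and 0 lower, against 9595 and 70 of all 16379 genes. Cxcl14 (0.46), Cxcl16 (0.15), Ccl21a (0.50) and Cxcl12 (0.16) turned sign. The 2 higher calls became 6 without INSL3-KI replicate 3, 1 without INSL3-KI replicate 1 or 2 or INSL3-KO replicate 2, and 0 without INSL3-KO replicate 1 or 3. The 9 lower calls became 5 without INSL3-KI replicate 1, 3 without INSL3-KO replicate 1 and 2 without INSL3-KO replicate 2 or 3.

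At P40 the testis of INSL3-KI mice, compared with WT of the same table, held fewer transcripts of the receptors Ccr4, Ccr6, Ccr7 and Cxcr5 and, under TMM scaling, more of Ccr2, Cxcr4 and Ccr10, none of which was called when libraries were scaled on the Sertoli list. Of 29 genes tested 7 were called higher and 7 lower, against 25.6% and 22.1% of all genes, so both shares (24.1%) are near the background. The median log2 fold change was 0.45 beside 0.09 for all genes. Cxcr5 was at 5.0, 4.23 and 4.03 CPM in WT and at 0.157, 0.0751 and 0.0734 CPM in INSL3-KI (-5.35, SE 0.35, adjusted p = 0.00016). Its neighbour Bcl9l rose by 2.12 on the log2 scale. Ccr6 was at 3.68, 2.57 and 2.75 CPM in WT and had 0 counts in INSL3-KI, at least 39.7-fold lower (adjusted p = 0.0005). Ccr4 was at 0.262, 0 and 0 CPM in INSL3-KI (-5.05, SE 1.01, adjusted p = 0.0047) and Ccr7 at 0.288, 0.15 and 0 CPM (-4.02, SE 0.81, adjusted p = 0.0048). Each of the 4 receptors was below every WT library.

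Ccl22 was at 0.628, 0 and 0.196 CPM in INSL3-KI (-3.77, SE 0.91, adjusted p = 0.0096), against 3.33 to 4.67 CPM in WT. Ccl27a was at 55.3, 59.4 and 43.8 CPM in WT and at 19.8, 7.26 and 5.99 CPM in INSL3-KI (-2.23, SE 0.46, adjusted p = 0.0051), and Ccl27b followed (-1.64, adjusted p = 0.0053). INSL3-KI replicate 1 was the highest mutant library for Ccl22, Ccl27a, Ccr4 and Ccr7. Ccl28 was at 4.21, 0.576 and 2.5 CPM in INSL3-KI and 7.67, 11.8 and 12.4 CPM in WT, without overlap but not called (-2.10, adjusted p = 0.023).

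Of the higher genes, Ccr2 was at 0.526, 0.554 and 1.44 CPM in WT and at 6.57, 8.26 and 11.6 CPM in INSL3-KI (3.42, SE 0.49, adjusted p = 0.0012). Cxcr4 was at 5.09, 4.07 and 6.24 CPM in WT and at 16.0, 21.8 and 22.1 CPM in INSL3-KI (2.01, SE 0.24, adjusted p = 0.00068). Receptor and ligand rose together in the CXCR4 pair, since Cxcl12 went from 23.8, 17.0 and 17.4 CPM to 49.8, 79.2 and 81.5 CPM (1.92, SE 0.26, adjusted p = 0.001). Cxcl16 was at 5.74, 6.13 and 6.91 CPM in WT and at 14.3, 18.4 and 18.6 CPM in INSL3-KI (1.5, SE 0.18, adjusted p = 0.00068), whereas its receptor Cxcr6 overlapped (-0.01, adjusted p = 0.99). Ccr10, the receptor of CCL27 and CCL28, was at 0, 0.0791 and 0.134 CPM in WT and at 0.445, 0.801 and 0.832 CPM in INSL3-KI (3.19, SE 0.74, adjusted p = 0.0081). It moved opposite to its ligand Ccl27a. Ccl7 was higher too (1.96, SE 0.41, adjusted p = 0.0057), while Ccl5 was at 0.702, 1.23 and 1.04 CPM in WT and at 0.288, 0 and 0.22 CPM in INSL3-KI (-2.48, adjusted p = 0.033).

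**Figure D3:**
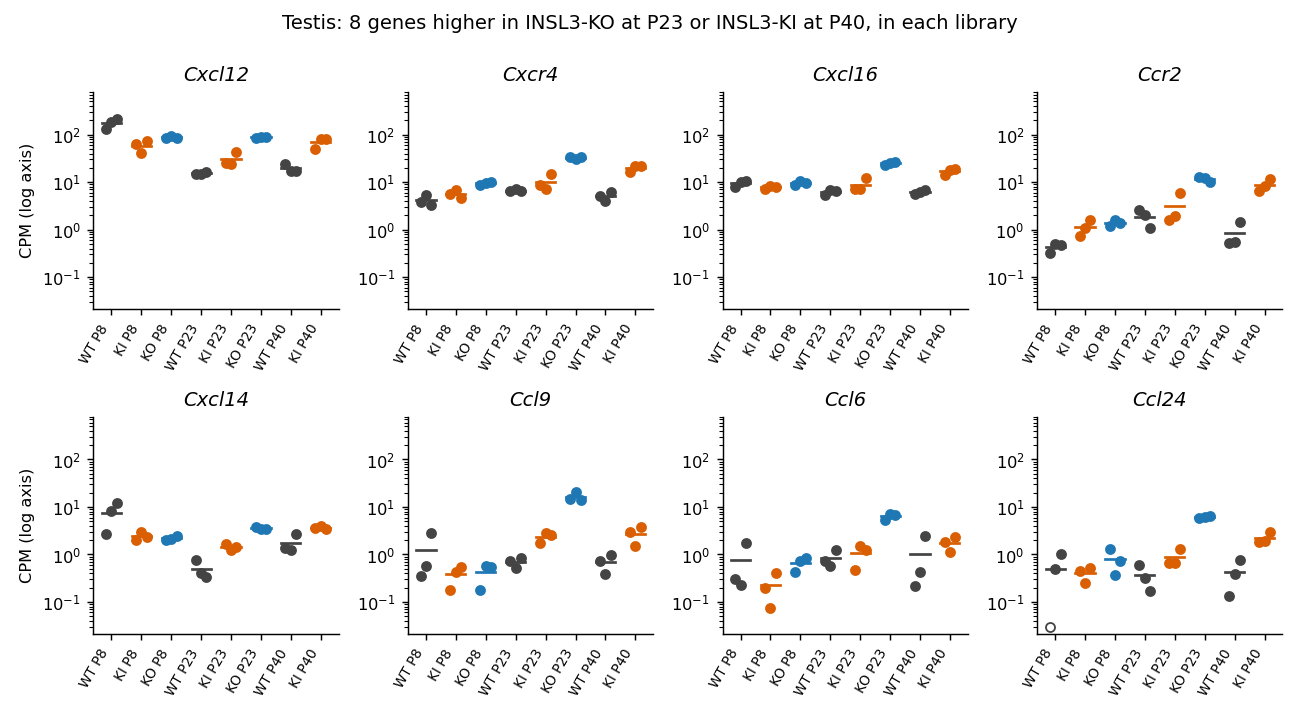
CPM (log axis) of 8 genes in each testis library by genotype and age, with WT in grey, INSL3-KI in orange and INSL3-KO in blue; a line marks the mean of 3 libraries, and open circles are libraries under 0.03 CPM. Under TMM scaling INSL3-KO at P23 lies above WT for all 8, and Cxcl12, Cxcr4, Cxcl16 and Ccr2 lie above WT in INSL3-KI at P40.

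The 7 higher calls at P40 became 4 without WT replicate 2 or INSL3-KI replicate 3. The 7 lower calls became 2 without any WT replicate, 4 without INSL3-KI replicate 2 and 3 without INSL3-KI replicate 3. Cxcr5 and Ccr6 among the lower and Cxcl12, Cxcl16, Cxcr4 and Ccr2 among the higher genes kept their call throughout. With the Sertoli scaling the all-gene median moved to -1.87, and 0 genes were called higher and 12 lower, against 52 and 10705 of all 16677 genes. Cxcl12 (-0.12) and Cxcl16 (-0.49) turned sign, and Ccr2 was at 1.44 and Cxcr4 at 0.02. The Sertoli list summed to 1869 to 2111 CPM in WT and 5986 to 8645 CPM in INSL3-KI (10 of 10 genes higher), the macrophage list to 169.7 to 245 CPM and 630.2 to 879 CPM (10 of 12 higher) and the spermatid list to 9580 to 12070 CPM and 13.7 to 47.1 CPM (8 of 8 lower). No marker of these lists was undetected, and their part in the chemokine values was not tested beyond the scaling.

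**Figure D4:**
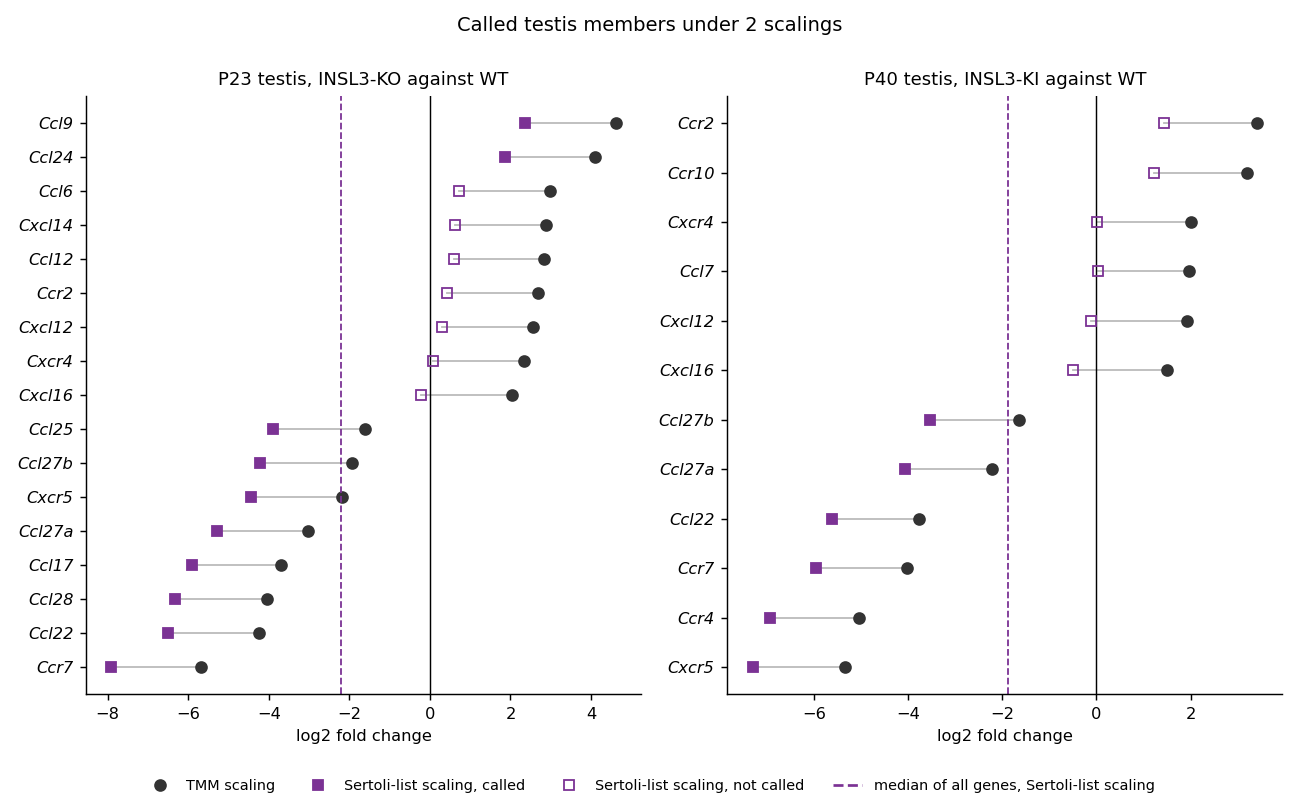
log2 fold change (x axis) of called genes with a fitted fold, in INSL3-KO testis at P23 (left) and INSL3-KI testis at P40 (right), under TMM (dark circles) and Sertoli-list scaling (purple squares, filled where called); genes undetected in a group are left out. The dashed line marks the all-gene median under the Sertoli scaling (-2.21 and -1.87). That scaling called 11781 of 16732 genes lower in the left comparison and 10705 of 16677 in the right. The lower genes stay called, which tests them little where most genes are called lower. Of the higher genes only Ccl9 and Ccl24 in the left panel stay called.

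Whether the effect of INSL3-KI differed between P8 and P40 was tested by the interaction of age and genotype in testis, within the first table. Of 33 genes tested 5 had a higher effect at P40 and 4 a lower one, against 23.2% and 22.5% of all genes, with a median difference of 0.94 on the log2 scale beside -0.01 for all genes. Cxcl12 had the smallest adjusted p (3.37, SE 0.43, adjusted p = 0.0001), and under TMM scaling it was below WT at P8 and above WT at P40. With scaling on the Sertoli list Cxcl12 was not above WT at P40. At P8 Cxcl12 lost its call without WT replicate 2 or 3 or INSL3-KI replicate 1 or 3. Its receptor Cxcr4 (1.43), Cxcl16 (1.65), Cxcl14 (2.58) and Ccr10 (3.62) had higher effects at P40. Cxcr5 (-6.51), Ccl27a (-2.80) and Ccl27b (-3.70) had lower effects. Ccl8 was called lower too, but it had 0 counts in the WT libraries of P8, so no size is given. The 5 higher calls became 3 without WT replicate 3 at P8 or WT replicate 1 or 2 at P40, and 2 without WT replicate 2 or INSL3-KI replicate 1 or 3 at P8 or INSL3-KI replicate 2 or 3 at P40. The 4 lower calls became 2 without WT replicate 2 at P8 or WT replicate 1 or 2 at P40, and 7 without INSL3-KI replicate 1 at P40.

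Genes of the wider pathway were counted from a list of 36 that holds atypical receptors, other chemoattractants and the signalling proteins downstream of the receptors. In P8 gubernaculum 5 of 34 tested were higher and 4 lower in INSL3-KI, and 6 and 7 of 34 in INSL3-KO. All genes gave 14.4% and 9.7% in INSL3-KI and 15.5% and 15.2% in INSL3-KO, near the shares of this list (14.7% and 11.8%, and 17.6% and 20.6%). Cx3cl1, the membrane-bound ligand fractalkine, was higher in both, with 2.02 to 2.85 CPM in WT, 31.8 to 43.3 CPM in INSL3-KI (3.98, SE 0.21, adjusted p = 2.6e-06) and 6.99 to 7.71 CPM in INSL3-KO (1.62, SE 0.20, adjusted p = 0.00034). The G protein regulators Rgs1 and Rgs16 moved oppositely, Rgs1 by 3.04 and 2.88 and Rgs16 by -2.55 and -2.46 in INSL3-KI and INSL3-KO. Ackr2, a receptor that scavenges inflammatory CC ligands, was lower in INSL3-KI (-2.91, SE 0.54, adjusted p = 0.0023), and Ackr4, which scavenges CCL19, CCL21 and CCL25, was higher in INSL3-KO (1.90, SE 0.32, adjusted p = 0.0015). Between the mutants 3 were higher in INSL3-KI and 3 lower of 35 (8.57% each), against 11.9% and 10.5% of all genes. Among them were Arrb1 (1.93), which ends receptor signals, the platelet ligand Pf4 (-1.81) and Ackr1 (-1.51), which carries chemokines across vessels. At P23 0 of 35 were called in gubernaculum, against 0.212% higher and 2.35% lower of all genes.

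In testis the same list had 0 of 34 called in INSL3-KI at P8, against 3.03% higher and 3.25% lower of all genes. It had 1 higher and 3 lower of 33 in the P8 libraries labelled INSL3-KO, against 5.44% and 8.37%. There the CXCL12 scavenger Ackr3 was higher (1.17) and Arrb1 (-1.27), Cx3cl1 (-1.18) and the receptor kinase Grk6 (-1.02) were lower. Between the P8 mutants 0 of 34 were called, against 2.76% higher and 1.16% lower of all genes. At P23 18 were higher and 4 lower of 32 in INSL3-KO, against 31.1% and 33.4% of all genes, and 2 and 1 of 32 in INSL3-KI, against 8.81% and 11.8%. With the Sertoli scaling the INSL3-KO counts became 0 higher and 18 lower, against 175 and 11781 of all 16732 genes. In INSL3-KI 0 were called, against 67 and 151 of 16603. Grk3, a receptor kinase, was at 82.6 to 87.8 CPM in WT and 6.29 to 7.36 CPM in INSL3-KO (-3.59, SE 0.08, adjusted p = 4e-11). Cmklr1, the chemerin receptor, was lower in INSL3-KO (-3.28) and INSL3-KI (-1.90) at P23 and in INSL3-KI at P40 (-2.88, SE 0.20, adjusted p = 0.00019). Pf4 (2.53) and the NF-kappa B inhibitor Nfkbia (2.48) were higher in INSL3-KO, and both differed between the mutants, with less in INSL3-KI (-1.81 and -1.52), as did Rac2 (-1.47), while Grk3 was higher (3.13). Cx3cl1 (1.89) and Stat3 (1.12) were the 2 genes higher in INSL3-KI at P23. Between the P23 mutants the list had 2 higher and 5 lower of 32 in INSL3-KI under TMM, against 25.2% and 13.0% of all genes. With the Sertoli scaling it had 13 higher and 0 lower, against 9595 and 70 of all 16379 genes. At P40 15 of 32 were higher and 3 lower in INSL3-KI, against 25.6% and 22.1% of all genes. With the Sertoli scaling 0 were higher and 13 lower, against 52 and 10705 of all 16677 genes. The TMM values at P40 had Xcr1, the receptor of cross-presenting dendritic cells, at a log2 fold change of 2.44, Pf4 at 2.12 and Grk3 at -2.67.

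Several genes of the family could not be read as changed at this depth. Ccl20, Ccl26, Cxcl3, Cxcl15 and Cxcl17 reached over 3 counts in at most 3 of the 39 libraries, so the CCR6 ligand CCL20 was not seen beside its receptor. Cxcr1 and Cxcr2, receptors of neutrophils, stayed at or below 0.773 and 0.434 CPM, and Ccl3 and Ccl4, which attract monocytes and T cells, at or below 0.401 CPM. Ccr9, the receptor of the CCL25 that rose with age in WT testis, was at or below 0.438 CPM in every testis library.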

How the data were processed

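RNA from gubernaculum and testis of male mice was extracted with TRIzol, and libraries were sequenced as 150 bp paired reads on an Illumina NovaSeq. Per the submitters' processing notes the reads were aligned to GRCm38 with HISAT2; the annotation and the strand setting of the counting are not given in the sources used here. The deposited tables hold gene counts and FPKM, which the authors computed per library without pooling replicates. The implied gene length was the same in both tables (within 5%) for 29 of 41 chemokine genes, so FPKM of the 2 tables are not on one scale for every gene, which touches the WT testis means and the limma fits across tables. Per the labels the 3 libraries of a group are biological replicates; how many animals each holds is not given in the sources used here.

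Counts of the 21561 shared genes were tested with edgeR 4.0.16 (R 4.3.3; TMM, filterByExpr with min.count 10 and min.total.count 15, quasi-likelihood F-test, compared groups only). Calls needed a Benjamini-Hochberg adjusted p under 0.01 and a fold of at least 2. Interactions were fitted over the 4 groups concerned. A gene with at most 3 counts in each library of a group was taken as undetected and its fold given as a bound against 3 counts per library; such floors cover counting error only. Alternatives were DESeq2 1.42.0, no filter on low counts, library size only, 1 fit over all groups of a tissue, the replicate number as a block, limma 3.58.1 on log2(FPKM + 1) and log2(FPKM + 0.1), scaling on 10 Sertoli cell genes in testis, and omission of each library. The labels give no pairing of libraries, and replicate numbers were not taken as pairs in the main fits. In 0 of 14 comparisons did every same-numbered pair correlate over 0.1 (range -0.14 to 0.46). With 3 libraries per group this cannot exclude a pairing, and P23 gubernaculum had pairs at -0.12, 0.34 and 0.46. On simulated data tested on the P8 gubernaculum INSL3-KI comparison (15303 genes, 196 changed), 85.7% of the changed genes were recovered with 1 false call. On the P40 testis comparison (16476 genes, 196 changed) 42.3% were recovered with 1 false call. The measured P40 data had 4264 genes called higher and 3690 lower of 16677. The number of false calls where that many genes differ was not tested. Named are the called chemokine genes (values for at most the 12 largest changes per comparison), the 5 highest in WT, ligand and receptor pairs, and up to 4 called genes of the wider pathway per comparison; Pax5, Ms4a1, Cd79a, Cd79b, Cd22, Rxfp2 and the genes that overlap a chemokine gene were named after their values were seen. Some genes that the counts include are not reported here by name. The genes and lists were chosen with earlier results of these data known. Levels in text are CPM over the TMM-scaled totals, computed with pandas 2.3.3 and numpy 2.4.6, and plots used matplotlib 3.10.9.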

Additional observations from a re-analysis of the deposited data

Results flagged for a closer look

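In testis the effect of INSL3-KI differed between P8 and P40 in 9 of 33 chemokine genes tested by the interaction of age and genotype (edgeR, Benjamini-Hochberg adjusted p over all genes), 5 with a higher and 4 with a lower effect at P40, against 23.2% and 22.5% of all genes. Values are the log2 effect at P40 minus that at P8. For Cxcl12 it was 3.37 (SE 0.43, adjusted p = 0.0001), the effect going from -1.53 at P8 to 1.92 at P40, with no overlap between the genotypes at either age. With scaling on the Sertoli list the P40 effect was -0.12. The P8 call was lost without WT replicate 2 or 3 or INSL3-KI replicate 1 or 3, with library size only and with the replicate number as a block. Its receptor Cxcr4 gave 1.43 (SE 0.35, adjusted p = 0.005). Cxcl16 gave 1.65 (SE 0.25, adjusted p = 0.00027), Cxcl14 2.58 (SE 0.68, adjusted p = 0.0069) and Ccr10 3.62 (SE 1.01, adjusted p = 0.0091). Cxcr5, whose exon positions overlap Bcl9l, gave -6.51 (SE 1.13, adjusted p = 0.00063), and Ccl8, with few counts, -7.25 (SE 1.56, adjusted p = 0.0035). The neighbouring copies Ccl27a and Ccl27b gave -2.80 (SE 0.66, adjusted p = 0.0036) and -3.70 (SE 1.02, adjusted p = 0.0087). Spermatid markers summed to 9580 to 12070 CPM in WT at P40 and to 13.7 to 47.1 CPM in INSL3-KI, the Sertoli list to 1869 to 2111 and 5986 to 8645 CPM, and the macrophage list to 169.7 to 245 and 630.2 to 879 CPM. Beyond that scaling their part in these differences was not tested.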

How the results depend on the processing

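Of 95 named calls recomputed under other settings, DESeq2 kept 94, library size only 84, limma on log2(FPKM + 1) 63 and the Sertoli scaling 24 of 60. In all 334 of 440 values kept the call, 99 lost it and 7 turned sign, and without single libraries 396 of 570 kept it, 174 lost it and 0 turned. The cause of each move was not tested.

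Counts of calls that moved are given as higher or lower in the first group. DESeq2 called 1 lower in P23 gubernaculum INSL3-KI, 2 lower in P8 testis INSL3-KO, 1 lower between the P8 testis mutants, 3 higher in P23 INSL3-KI, 4 higher between the P23 mutants, 7 higher and 1 lower in WT gubernaculum with age, 8 lower in the testis interaction and 3 higher and 3 lower in that of gubernaculum. Library size only gave 0 lower in P8 testis INSL3-KI, 4 higher in P23 INSL3-KI, 1 higher between the P23 mutants, 4 lower in P40 INSL3-KI, 6 lower in WT testis with age and 6 higher between WT tissues. One fit per tissue gave 2 lower in P8 gubernaculum INSL3-KI, 0 higher and 3 lower between its mutants, 2 lower in P8 testis INSL3-KI, 3 lower in P8 INSL3-KO and 6 higher between the P23 mutants. limma on log2(FPKM + 1) gave 6 lower between the P8 gubernaculum mutants, 3 lower in P23 INSL3-KI, 1 higher between the P23 mutants and 2 lower in P40 INSL3-KI; with 0.1 added it gave 5 higher in P8 testis INSL3-KO, 4 higher in P23 INSL3-KI and 16 lower between the P23 mutants.

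With the replicate number as a block, 69 of 95 calls were kept; counts became 0 lower in P8 testis INSL3-KI, 1 higher and 0 lower in P8 INSL3-KO, 0 higher and 1 lower in P23 INSL3-KI, 1 higher in WT gubernaculum, 7 higher and 1 lower between WT tissues and 2 lower in the testis interaction. The Sertoli scaling gave 0 higher and 3 lower in P8 INSL3-KO, 0 and 1 in P23 INSL3-KI, 2 and 16 in P23 INSL3-KO, 5 and 0 between the P23 mutants and 0 and 12 in P40 INSL3-KI. Of all genes, in the same order, it called 385 higher and 2756 lower of 15723, 67 and 151 of 16603, 175 and 11781 of 16732, 9595 and 70 of 16379 and 52 and 10705 of 16677. It turned Cxcl16 in P23 INSL3-KO (-0.21), Cxcl14 (0.46), Cxcl16 (0.15), Ccl21a (0.50) and Cxcl12 (0.16) between the P23 mutants, and Cxcl16 (-0.49) and Cxcl12 (-0.12) in P40 INSL3-KI.

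Without single libraries the higher and lower calls ranged from 4 to 7 and 3 to 5 in P8 gubernaculum INSL3-KI, 6 to 10 and 0 to 1 in INSL3-KO, 1 to 2 and 9 to 11 between the mutants, and 0 to 0 in both directions in P23 INSL3-KI. In testis they ranged from 0 to 0 and 0 to 2 in P8 INSL3-KI, 0 to 2 and 0 to 3 in P8 INSL3-KO, 0 to 0 and 0 to 1 between the P8 mutants, 0 to 1 and 1 to 11 in P23 INSL3-KI, 11 to 12 and 9 to 10 in P23 INSL3-KO, 0 to 6 and 2 to 12 between the P23 mutants, and 4 to 8 and 2 to 9 in P40 INSL3-KI. They ranged from 10 to 12 and 2 to 5 in WT testis with age, 1 to 3 and 0 to 0 in WT gubernaculum with age, 4 to 8 and 1 to 2 between WT tissues, 2 to 6 and 2 to 7 in the testis interaction, and 0 to 1 and 0 to 2 in the gubernaculum interaction. Values under 1 CPM rest on few counts, which limits their precision.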

Other observations

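Of 20 inflammatory regulators outside the chemokine family, 4 of 14 tested were higher in P8 gubernaculum of INSL3-KI than in WT (among them Irf7, Lcn2 and Irf1) and 1 lower (the endothelial adhesion molecule Sele), against 14.4% and 9.7% of all genes. In INSL3-KO 5 of 17 were higher (among them Saa3, Lcn2, Il1b and Isg15) and Sele was lower, against 15.5% and 15.2%. The interferon mediator Irf1 was thus higher in the INSL3-KI ligament in which the interferon-induced ligand Cxcl9 was lower. In testis 10 of 15 were higher and 1 lower in INSL3-KO at P23, against 31.1% and 33.4% of all genes, and 6 of 15 were higher (among them Tgfb1, Irf7, Ifit3, Vcam1 and Icam1) and 1 lower in INSL3-KI at P40, against 25.6% and 22.1%. In INSL3-KI at P23, against WT of the other table, 1 of 15 was higher and 3 were lower, too few to give a direction. All genes gave 8.81% and 11.8%. The list summed to 235, 199 and 357 CPM in these INSL3-KI libraries and to 646 to 649 CPM in WT. With scaling on the Sertoli list the counts became 1 higher and 5 lower in INSL3-KO at P23, against 175 and 11781 of all 16732 genes. They became 1 and 1 in INSL3-KI at P23, against 67 and 151 of 16603. In INSL3-KI at P40 they became 0 and 4, against 52 and 10705 of 16677. Neutrophil markers (9) summed to 0.991 to 1.77 CPM in WT gubernaculum at P8, 75.9 to 131 CPM in INSL3-KI and 30.2 to 34.9 CPM in INSL3-KO, mostly from Ltf, which also is made by glandular epithelia.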
